A study of Capra hircus with 6 samples.

Results

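SLCO3A1, ARHGAP25, BCAS3 and NEBL are 4 goat genes chosen by the number of set 2 regions that a table of differing accessible regions lists at them. The regions described are all those listed, with no limit on the p-value, whose centre lies in a gene or within 50000 bp of one of its ends. This gave 41 of 30714 listed regions, 35 in set 2 and 6 in set 1, at 4 of 19063 protein-coding genes on the numbered chromosomes. Because that number selected the genes, the counts, fold changes and p-values of these regions are descriptions without a test.

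Accessible chromatin was measured by ATAC-seq, which uses Tn5 transposase to cut and tag DNA that nucleosomes leave bare, in mammary epithelial cells of the domestic goat, Capra hircus. The 2 groups are 3 libraries from lactation and 3 from the dry period, the rest between lactations when the gland gives no milk. All 6 carry the same tissue and cell type label, with no age, breed, genotype or agent given, and each protocol started from 50000 cells. From the series' title, the comparison bears on accessible sites of the lactating gland as places for transgenes. Region names in the table fall into set 1 and set 2, each with fold changes above 1, which were taken as the regions more accessible in one of the periods. Which set belongs to which period is given by neither the table nor the labels, so directions are written by set. The table gives values of the whole comparison and none per library, read depth is unknown, and no expression value was used here, so the cell type label could not be checked against marker expression. Nothing in the labels says whether the 3 libraries of 1 period are from different animals, nor is it stated what variation the authors' p-values use, so these measure at most the spread between the samples. A fold change below is the authors' ratio of one period over the other, and a called region is one with an authors' false discovery rate (FDR) under 0.05.

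The 4 proteins work in unlike places. SLCO3A1 is an organic anion transporter of the cell membrane that carries prostaglandins and thyroid hormone. ARHGAP25 is a GTPase-activating protein that switches off the small GTPase Rac and is known from blood cells, where it limits phagocytosis in human cells. BCAS3, first found as a gene amplified in human breast cancer, encodes a beta-propeller protein that binds the growing autophagosome membrane and takes part in actin-dependent cell movement. NEBL encodes nebulette, an actin-binding protein of the Z-disc in heart muscle, and a shorter product of the same gene, LASP2, sits at focal adhesions of other cells. Introns of long genes are known to hold many enhancers.

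SLCO3A1 on chromosome 21 held 22 set 2 regions and 0 set 1 regions, the most set 2 regions of all 19063 genes. All 22 lie inside the gene, which is 374.7 kb long. Of every listed region in the table, 25.5% are in set 2, and the genes next in order, THRB and CREB5, had 13 each. At an FDR under 0.05, 7 of the 22 were called, against 9.23% of all listed set 2 regions. The fold changes of the 22 ran between 3.17 and 10.2 in the authors' deposited table, with a median of 5.36, where the median of all listed set 2 regions was 3.59.

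The lowest p-value in SLCO3A1 belonged to a region of 700 bp on chromosome 21 at 14388701 to 14389400, at 4.28-fold in the authors' deposited table (p = 5.79e-11, FDR = 9.63e-06). It was the 37th of 7830 set 2 regions when ordered by p. A region of 500 bp at 14215401 to 14215900 came next in the gene, at 5.28-fold by the authors' deposited table (FDR = 1.2e-05). Regions at 14273501 to 14274000 and at 14330201 to 14330800 had folds of 3.17 (FDR = 0.0028) and 5.93 (FDR = 0.00436) in the authors' deposited table. The other 3 called regions stood close to the limit. In the authors' deposited table the region of 1000 bp at 14201201 to 14202200 had a fold change of 5.99 (FDR = 0.0333), that at 14352501 to 14352800 had 3.67 (FDR = 0.0377) and that at 14216401 to 14217300 had 5.27 (FDR = 0.0484).

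The largest fold changes in SLCO3A1 were not those with the lowest p. A region at 14439901 to 14440400 had the largest, 10.2 in the authors' deposited table (FDR = 0.250). Folds of 9.10, 9.01 and 8.91 followed at 14196901 to 14197400, 14194001 to 14194400 and 14413601 to 14413800, with an FDR of 0.451, 0.134 and 0.802 in the authors' deposited table. None of these 4 was called, and by the authors' deposited table the fold changes of the 7 called regions ended at 5.99. The other 11 uncalled regions ran from 3.21 to 7.08 in fold and from 0.158 to 0.706 in FDR, by the authors' deposited table.

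Within SLCO3A1 the set 2 regions were crowded toward the end of the gene with the lower coordinates. Whether that end is the start of the gene is not known here, since the gene positions came without a strand. A stretch of 36.2 kb, at 14186801 to 14223000, held 10 of the 22. No other set 2 region on the numbered chromosomes opened a 40 kb window with as many, out of 7664, and the highest number on the other chromosomes was 9, on chromosome 23. The other 12 were spread over 184.2 kb. By the authors' deposited table the median fold was 5.36 in both stretches, with 3 called among the 10 and 4 called among the 12. The first 49.3 kb of the gene up to the first region's centre and the last 71.9 kb after the last region held none of either set.

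Some of the 22 stand close together. In SLCO3A1, 5 of 21 gaps between successive set 2 regions were 1000 bp or shorter, with a median gap of 6900 bp, and joining regions across such gaps left 17 sites. Over the numbered chromosomes, 6.02% of gaps between set 2 regions were that short, with a median of 121700 bp. Of the set 2 regions in SLCO3A1, 6 had the smallest listed width, 200 bp, a share of 27.3% against 52.5% over all set 2 regions.

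**Figure D1:**
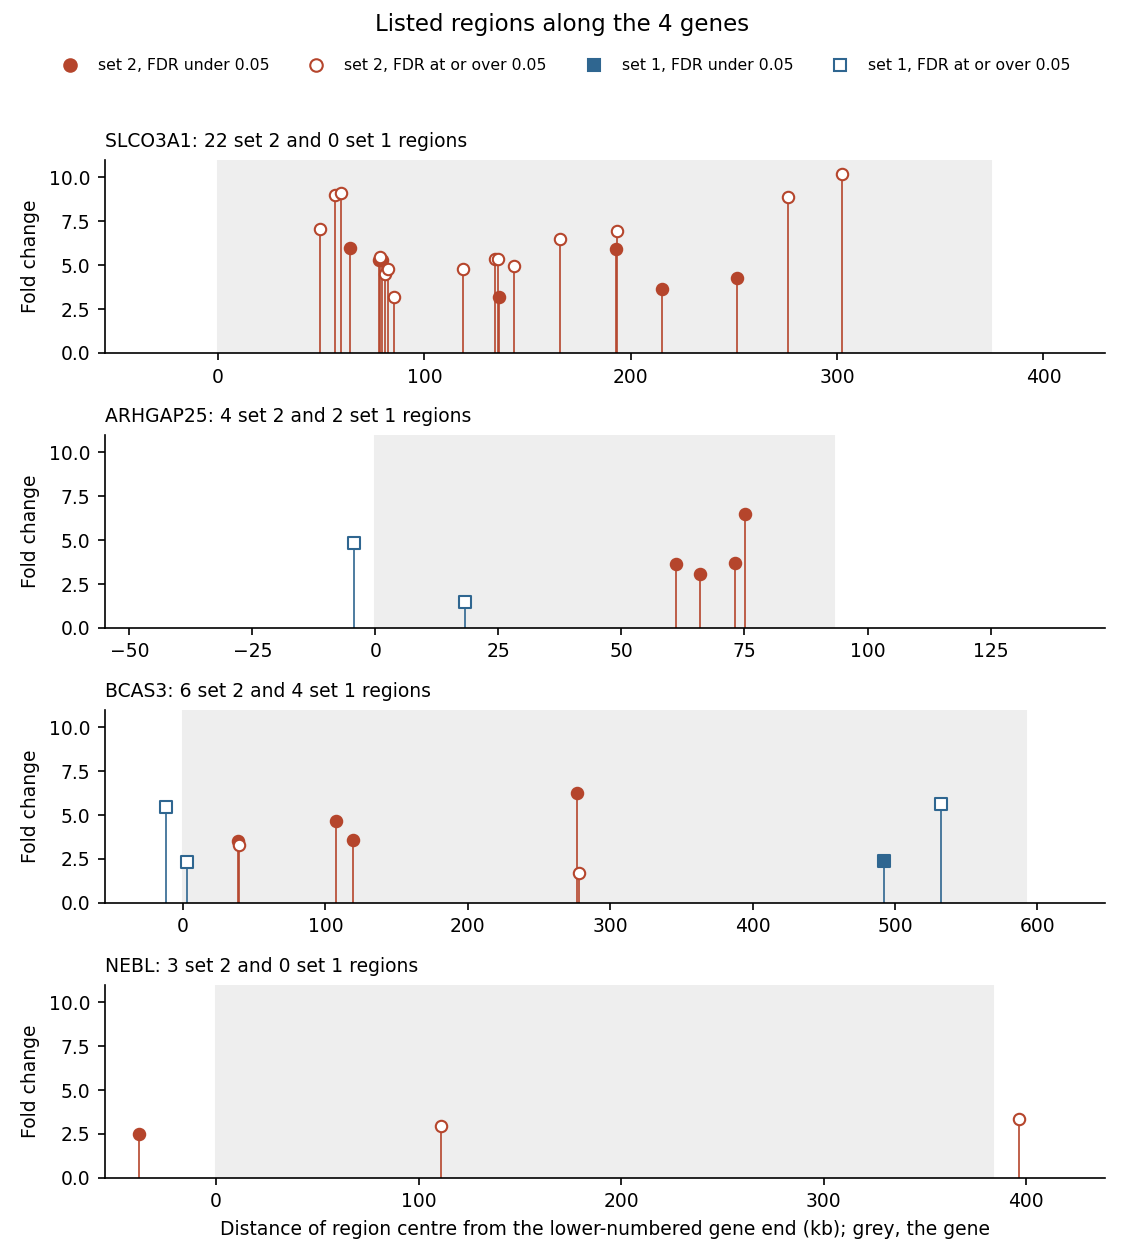
The 4 panels plot the authors' fold change (y axis) of each listed region against the distance of its centre from the gene end with the lower coordinate, in kb (x axis). Circles are set 2 and squares set 1, filled symbols have an FDR under 0.05, and the grey band is the gene. SLCO3A1 holds 22 circles and no square, and the 4 filled circles of ARHGAP25 stand within 14.9 kb.

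ARHGAP25 on chromosome 11, the shortest of the 4 genes at 93.2 kb, held 4 set 2 regions and had 2 set 1 regions. All 4 set 2 regions were called at an FDR under 0.05 and none of the set 1 regions, against 9.23% of listed set 2 and 34.2% of listed set 1 regions. The set 2 regions lie together within 14.9 kb inside the gene, 18.1 to 32.1 kb from the nearer end. Over the numbered chromosomes, 166 of 7664 set 2 regions, on 26 chromosomes, opened a 40 kb window with at least 4 set 2 regions. The lowest p was that of the region at 66891001 to 66891500, at 3.10-fold in the authors' deposited table (p = 3.61e-12, FDR = 9.13e-07), the 24th of all set 2 regions by p.

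A region at 66886201 to 66886700 stood at 3.61-fold in the authors' deposited table (FDR = 0.00315). The widest region at any of the 4 genes, 1200 bp at 66899901 to 66901100, had the largest fold change in ARHGAP25, 6.50 by the authors' deposited table (FDR = 0.00653). In the authors' deposited table the last, at 66898101 to 66898700, had 3.70 (FDR = 0.0236). Of these 4, the widest is also within 50000 bp of BMP10, a growth factor gene of the heart.

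The 2 set 1 regions of ARHGAP25 lie toward the other end of the gene and were both 200 bp wide. One lies outside the gene, 4.35 kb from the end, at 66820901 to 66821100, at 4.85-fold in the authors' deposited table (FDR = 0.248). A second, inside the gene at 66843501 to 66843700, was at 1.45-fold by the authors' deposited table (FDR = 0.250). By position, these 2 uncalled set 1 regions come before the set 2 regions. How often regions at other genes stand in such an order was not counted.

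BCAS3 on chromosome 19, the longest of the 4 at 592.2 kb, held 6 set 2 regions and had 4 set 1 regions. Called at an FDR under 0.05 were 4 of the 6 in set 2 and 1 of the 4 in set 1, against 9.23% of listed set 2 and 34.2% of listed set 1 regions. The lowest p was at 11443201 to 11443700, at 4.65-fold in the authors' deposited table (p = 3.55e-10, FDR = 4.03e-05), the 52nd of all set 2 regions by p. The region of 700 bp at 11612401 to 11613100, at 46.7% of the gene's length from its lower end, had the largest set 2 fold change there, 6.25 by the authors' deposited table (FDR = 0.00701).

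Regions at 11455201 to 11455600 and at 11375101 to 11375400 had folds of 3.60 (FDR = 0.0373) and 3.55 (FDR = 0.0410) in the authors' deposited table. Each of the 2 uncalled set 2 regions was 200 bp wide and lay beside a called one. By the authors' deposited table they had folds of 3.32 at 11375801 to 11376000 (FDR = 0.473) and 1.70 at 11614501 to 11614700 (FDR = 0.490), the smallest set 2 fold change at any of the 4 genes.

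In BCAS3 the sets lie apart: the set 1 regions stand at both ends, the set 2 regions between them. Such an order was not counted at other genes. All 6 set 2 regions are inside the gene, with the first 38.9 kb from its lower end and the last 278.3 kb. The called set 1 region is inside the gene at 11828401 to 11828900, at 2.39-fold in the authors' deposited table (p = 8.74e-07, FDR = 0.00272). At 11868701 to 11868900 the fold change was 5.64 in the authors' deposited table (FDR = 0.0839). The set 1 region at 11338901 to 11339100 is 2.67 kb from the lower end of BCAS3 and had 2.33 by the authors' deposited table (FDR = 0.0964). The last, at 11324301 to 11324500 at 5.44-fold in the authors' deposited table (FDR = 0.171), lies 11.9 kb outside BCAS3 and inside TBX2, a T-box transcription factor gene. TBX2 ends 7.09 kb from BCAS3, and 2 set 2 regions inside BCAS3 are also within 50000 bp of it.

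NEBL on chromosome 13 does not bear out the choice by number. It had 3 set 2 regions and 0 set 1 regions, and 1008 of the 19063 genes had at least 3 set 2 regions. Of 9998 genes with 3 or more listed regions, 2.21% had at least 3 in set 2 and none in set 1. Only 1 of its 3 regions lies inside the gene of 383.8 kb, at 21593301 to 21593700, at 2.98-fold in the authors' deposited table (FDR = 0.206). The called region is 37.9 kb outside, at 21444201 to 21444700, with 2.50 in the authors' deposited table (p = 4.38e-06, FDR = 0.0423). A region of 200 bp at 21879001 to 21879200 is 12.9 kb beyond the other end, at 3.36 by the authors' deposited table (FDR = 0.679), and is also within 50000 bp of C13H10orf113, a gene that lies within NEBL.

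**Figure D2:**
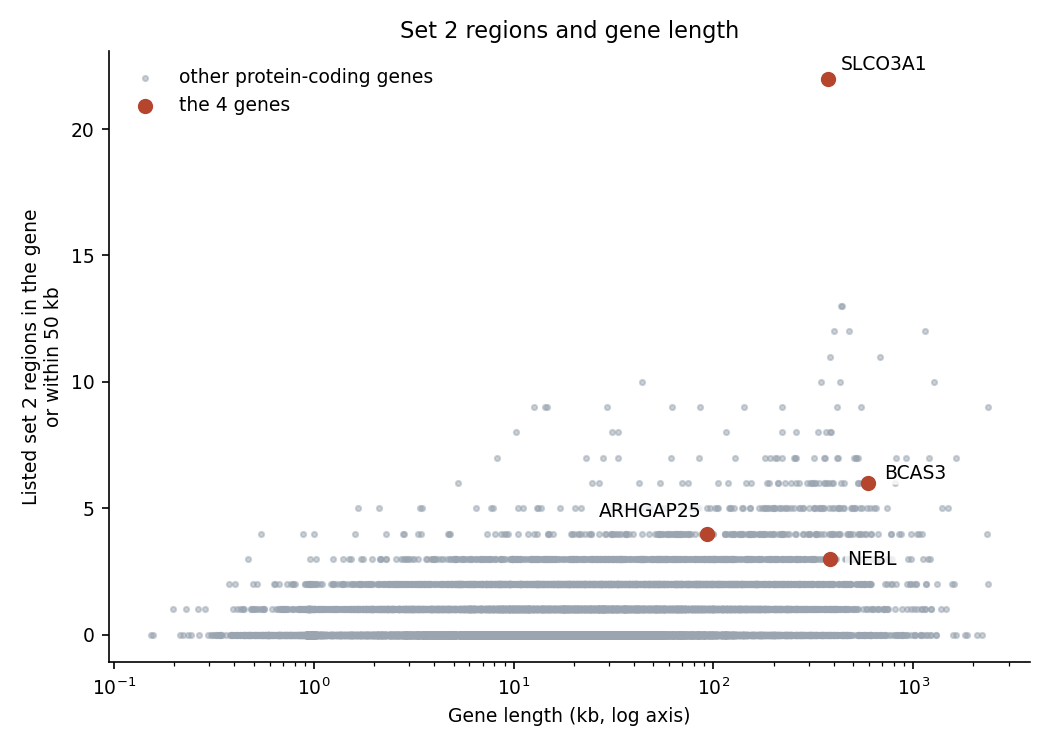
Each point is a protein-coding gene on a numbered chromosome, with its length in kb (x axis, log scale) and the number of listed set 2 regions in it or within 50 kb of an end (y axis). SLCO3A1, with 22, stands above every other gene, while BCAS3 with 6, ARHGAP25 with 4 and NEBL with 3 have numbers that other genes share.

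By the number of listed set 2 regions the order was SLCO3A1 in place 1, BCAS3 in place 62, ARHGAP25 in place 212 and NEBL in place 413, where tied genes share a place. Gene length moves with this number up to 6: the median length was 13.3 kb over the 11901 genes with 0 set 2 regions, 97.7 kb over the 201 genes with 4, and 306.0 kb over the 41 genes with 6. Above that the order was uneven, with 258.2 kb over the 28 genes with 7, 85.4 kb over the 11 with 9 and 389.1 kb over the 4 with 10. The part of gene length in the counts was not tested. SLCO3A1 had 4.63 set 2 regions per 100 kb of gene and flanks, ARHGAP25 2.07, BCAS3 0.87 and NEBL 0.62. Over the 2715 genes at least as long as ARHGAP25, the median was 0.31 per 100 kb and the upper quartile 0.59, with SLCO3A1 in place 1, ARHGAP25 in place 35, BCAS3 in place 447 and NEBL in place 659. Among all genes SLCO3A1 came to place 25 by this density.

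Counting called regions alone, at least 4 set 2 regions were found at only 4 of the 19063 genes. These were SLCO3A1 with 7 and ARHGAP25, BCAS3 and HHAT, an acyltransferase of hedgehog proteins, with 4 each. A called set 2 region was listed at 5.06% of all genes, and NEBL with 1 is one of these 965. Of the 35 set 2 regions at the 4 genes, 16 were called, a share of 45.7%, and of the 6 set 1 regions 1 was called, against 9.23% of all listed set 2 and 34.2% of all listed set 1 regions. The called regions at the 4 genes were 16 in set 2 and 1 in set 1, where set 2 makes up 8.46% of the called regions of the whole table. The 4 genes were chosen by their set 2 regions in this same comparison, so these shares are no support beyond that choice. Of the 35 set 2 regions, 22 are in SLCO3A1. The highest p among called regions was 5.63e-06 in set 2 and 6.21e-05 in set 1 of the authors' deposited table, so a set 2 region needed a lower p to be called.

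**Figure D3:**
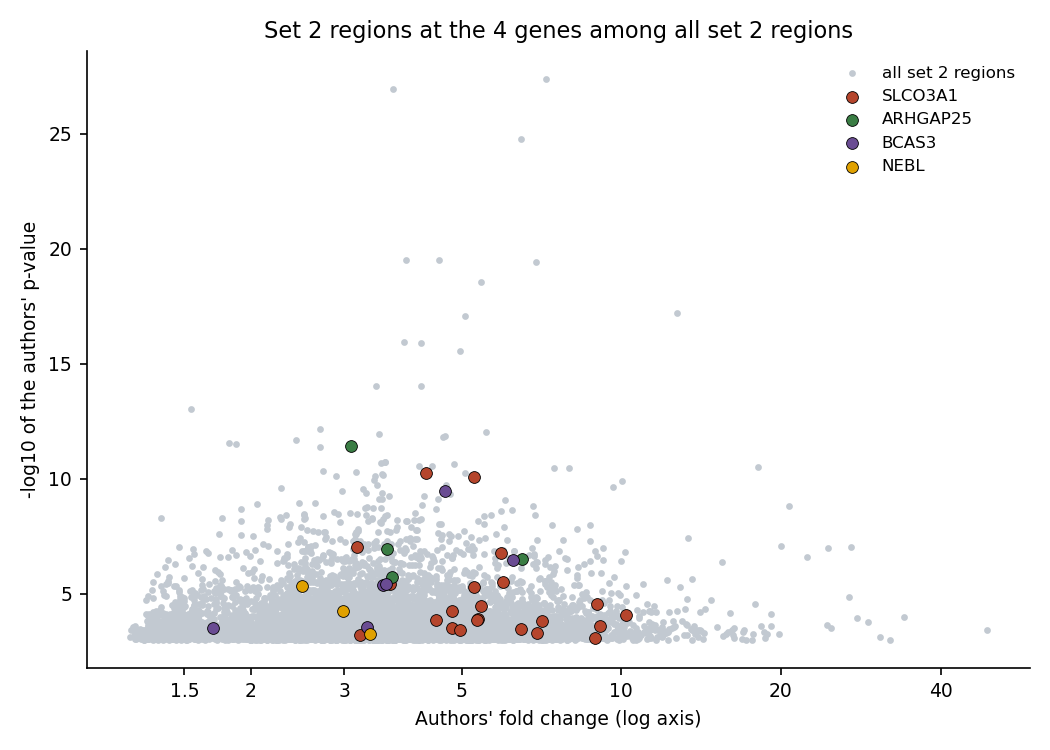
Each point is a set 2 region, with the authors' fold change on the x axis (log scale) and −log10 of the authors' p-value on the y axis; coloured points belong to the 4 genes. The regions with the lowest p in ARHGAP25 (fold change of 3.10), SLCO3A1 (4.28 and 5.28) and BCAS3 (4.65) do not have the largest folds of their genes, and SLCO3A1 regions with folds above 8 lie low on the y axis.

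Among the 4 genes, SLCO3A1 had the larger set 2 folds. A fold change of 5 or more was listed for 14 of its 22 set 2 regions in the authors' deposited table, for 1 of 4 in ARHGAP25, 1 of 6 in BCAS3 and 0 of 3 in NEBL, and for 24.7% of all set 2 regions. Median set 2 folds in the authors' deposited table were 5.36 in SLCO3A1, 3.66 in ARHGAP25, 3.58 in BCAS3 and 2.98 in NEBL, so the last 3 lay on both sides of the 3.59 of all set 2 regions. Among called set 2 regions alone, the largest fold in the authors' deposited table was 5.99 in SLCO3A1. That was below the 6.50 of ARHGAP25 and the 6.25 of BCAS3. The number of reads behind each region is unknown.

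Of the 35 set 2 regions, 33 are inside 1 of the 4 genes, at 18.1 to 278.3 kb from its nearer end with a median of 85.2 kb, and 0 of these 33 are within 3000 bp of an end. SLCO3A1 holds 22 of these 33. By gene, the median was 91926.5 bp in SLCO3A1 and 113096 bp in BCAS3, but 23726 bp in ARHGAP25. Of all 7664 set 2 regions on the numbered chromosomes, 53.7% are inside a protein-coding gene, with a median of 25.4 kb from an end and 12.4% of them within 3000 bp. In genes at least as long as ARHGAP25 the median was 54.4 kb and 3.19% were within 3000 bp. Of the 6 set 1 regions, 4 are inside a gene, 1 of them within 3000 bp. Of all set 1 regions on the numbered chromosomes, 53.2% are inside a protein-coding gene, and 41.0% of those are within 3000 bp of an end. In genes at least as long as ARHGAP25 that share was 15.7%. How far from an end a region can lie is bounded by the length of its gene. Exons and introns were not separated, and no DNA sequence of these regions was used here.

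The surroundings of the 4 genes differed. SLCO3A1 stood alone: within 500 kb outside the gene there were 2 set 2 regions and 0 set 1 regions, both on the side with higher coordinates. Its nearest protein-coding neighbours are ST8SIA2, a sialyltransferase gene 272.3 kb away, and SV2B, a synaptic vesicle protein gene 608.6 kb away. Inside the gene the density was 5.87 set 2 regions per 100 kb, against 0.35 in the 1000 kb on either side, where there were 7 set 2 regions and 16 set 1 regions.

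Around ARHGAP25, no region of either set was listed from 50 to 200 kb away. Within 1000 kb outside the gene there were 12 set 2 regions and 22 set 1 regions. Within 500 kb, 6 set 2 regions and 1 set 1 region lie inside ANTXR1, a collagen-binding receptor gene, and the 6 had folds between 2.69 and 8.55 in the authors' deposited table with none called (lowest FDR = 0.0645). Around BCAS3 there were 4 set 2 regions and 43 set 1 regions within 1000 kb. On the whole of chromosome 19, 13.6% of the 1830 listed regions are in set 2, the lowest share of the 4 chromosomes, against 29.2% on chromosome 21, 27.7% on chromosome 13 and 25.7% on chromosome 11.

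For NEBL the set 2 regions were denser beside the gene than in it. Inside the gene there was 1 set 2 region (0.26 per 100 kb), against 7 within 200 kb outside it (1.75 per 100 kb), and set 1 had 0 in both. Just past the 50000 bp limit, at 54.3 and 67.0 kb, stand regions with folds of 3.81 (FDR = 0.640) and 2.66 (FDR = 0.0101) in the authors' deposited table, both in set 2. Beside the second, at 21414301 to 21414800, is a region at 7.17-fold in the authors' deposited table (FDR = 0.0394). These called regions, at 67.0 and 67.8 kb, lie in a stretch without a protein-coding gene. The next called one on that side is inside PLXDC2, a membrane protein gene 353.6 kb from NEBL, at 5.39-fold by the authors' deposited table (FDR = 0.00172).

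At the other genes the 50000 bp limit cut through no group of regions. The first region outside it was 144.5 kb from SLCO3A1 (set 2, fold change of 4.96, FDR = 0.654 in the authors' deposited table), 239.1 kb from ARHGAP25 (set 2, 8.55, FDR = 0.829) and 73.9 kb from BCAS3 (set 1, 1.71, FDR = 0.0662). The farthest region inside the limit but outside the gene was 4.35 kb from ARHGAP25, 11.9 kb from BCAS3 and 37.9 kb from NEBL, and SLCO3A1 had none there.

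**Figure D4:**
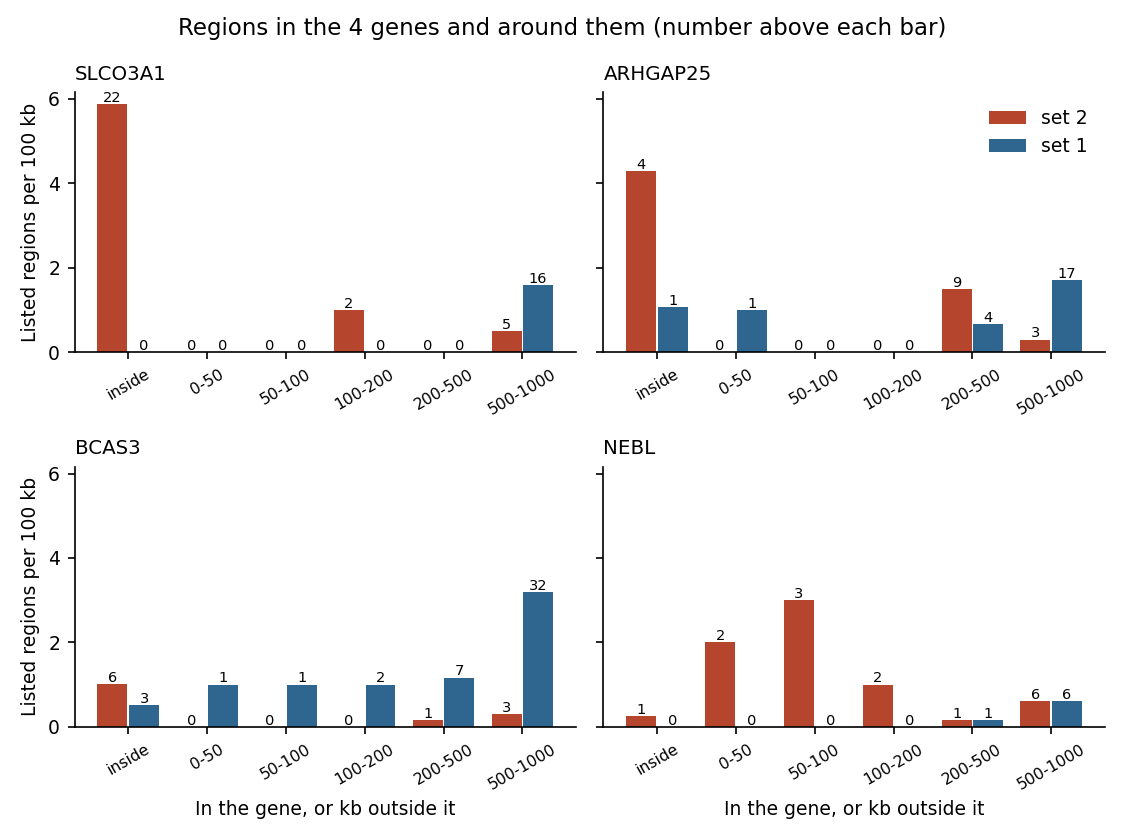
Bars give listed regions per 100 kb (y axis) inside each gene and in bins of distance outside it, both sides together (x axis, kb), with the number of regions above each bar; red is set 2 and blue set 1. SLCO3A1 has 22 set 2 regions inside and 2 within 500 kb outside, while NEBL has 1 inside and 7 within 200 kb outside.

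Apart from the 4 genes, the 10 with the most listed set 2 regions were THRB (13), CREB5 (13), BRE, PPP2R2B and C28H10orf11 (12 each), SLC8A1 and TENM4 (11 each), and DSP, SASH1 and CDH23 (10 each). These stand next to SLCO3A1 in number and above the other 3, whose numbers are shared more widely: 41 genes had 6 set 2 regions, as BCAS3, 201 had 4, as ARHGAP25, and 596 had 3, as NEBL. THRB is a thyroid hormone receptor, PPP2R2B a subunit of protein phosphatase, SLC8A1 a sodium and calcium exchanger and DSP the desmosome protein desmoplakin. Of these 10, CREB5, PPP2R2B, SLC8A1 and SASH1 had 0 set 1 regions, as had SLCO3A1 and NEBL. The highest numbers of called set 2 regions among the 10 were 3, in SLC8A1 and C28H10orf11, and THRB, CREB5 and PPP2R2B had 0. SLCO3A1 and SLC8A1 are of similar length (374.7 and 382.8 kb) and had set 2 regions alone, 22 and 11 of them.

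Genes related to the 4 by family or process were counted without the 4 themselves, and each pair of numbers below gives set 2 regions and then set 1 regions. Over all 19063 protein-coding genes, 37.6% had a listed set 2 region within 50000 bp and 71.4% a set 1 region, with a median of 0 set 2 and 2 set 1 regions per gene. Among 8 other organic anion transporters, 4 had a set 2 region and 4 a set 1 region, and the medians were 0.5 and 0.5. SLCO5A1 had 4 set 2 regions and 0 in set 1, with 1 called (FDR = 0.0178 in the authors' deposited table). SLCO2B1, which carries steroid sulfates, had 2 and 0. SLCO4A1, with 1 and 3, and the prostaglandin transporter SLCO2A1, with 1 and 2, had more in set 1. SLCO3A1 had 22, where the highest number among these 8 was 4.

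Prostaglandin and thyroid hormone handling, the cargo side of SLCO3A1, had a set 2 region at 12 of 21 genes and a set 1 region at 13 of 21, with medians of 1 and 1. THRB led with 13 set 2 regions and 1 in set 1, with 0 called in set 2. ABCC4, an exporter of prostaglandins, had 5 and 1, and SLC7A5, an amino acid and thyroid hormone transporter, 4 and 5. Set 1 was the larger at the prostaglandin receptor PTGER1 (1 and 9) and the synthase PTGES2 (0 and 7).

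For ARHGAP25, which acts on Rac, genes of the Rac and Cdc42 axis were counted, and these had a set 2 region in 11 of 16 cases and a set 1 region in 13 of 16, with medians of 1 and 2.5, and VAV3, which activates Rac, had 5 and 1. The best of its 5 had an FDR of 1.11e-05 in the authors' deposited table. Numbers were 2 and 3 at RHOG and 2 and 6 at CDC42. DOCK1, another activator of Rac, had 2 and 13, and VAV2 had 2 and 9.

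The nebulin family and its actin filament partners had a set 2 region at 16 of 26 genes and a set 1 region at 21 of 26, with medians of 1 and 4. ACTN1, an alpha-actinin, had 5 and 11, TPM2 2 and 10, LMOD2 2 and 0, and ACTN4 1 and 20. Of the phagophore genes and the other genes with a BCAS symbol, 9 of 19 had a set 2 region and 16 of 19 a set 1 region, with medians of 0 and 3. ATG16L1, which places LC3 on the phagophore, had 3 and 1, BCAS1 3 and 3 and ATG9A 2 and 8. ATG2A (0 and 12) and WDR45B (0 and 11) had set 1 regions alone.

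Called set 2 regions were at 1 of 8, 4 of 21, 2 of 16, 1 of 26 and 1 of 19 genes of these 5 lists in the same order, against 5.06% of all genes, and called set 1 regions at 3, 7, 8, 17 and 11, against 48.9% of all genes. The median length of the lists' genes ran from 20.2 to 86.1 kb, against 17.8 kb over all genes, and its part in the counts was not tested.

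**Figure D5:**
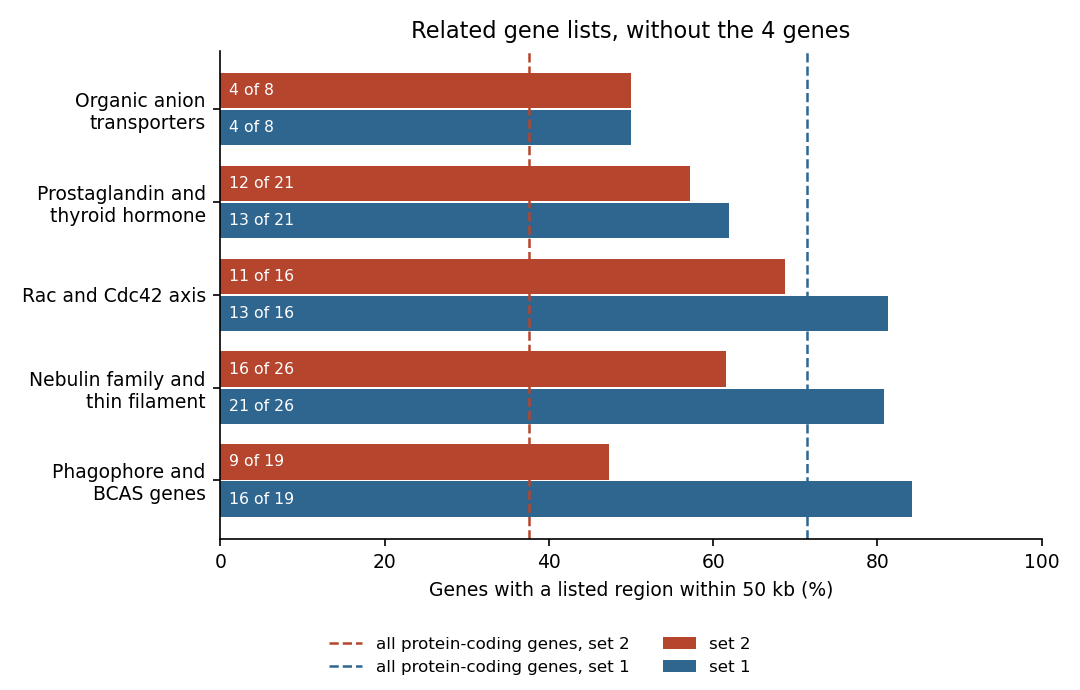
Bars give the percentage of genes in each list, without the 4 genes, that had a listed set 2 region (red) or set 1 region (blue) within 50 kb; dashed lines mark 37.6% for set 2 and 71.4% for set 1 over all protein-coding genes. Set 1 bars are as long as or longer than set 2 bars in all 5 lists.

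ARHGAP25 is a gene of blood cells and NEBL one of heart muscle, so markers of other cell types were counted in the same way. A set 2 region was listed at 4 of 9 leukocyte markers and a set 1 region at 7 of 9. The shares over all protein-coding genes, to be set beside these and the counts that follow, were 37.6% for set 2 and 71.4% for set 1. Striated muscle markers had a set 2 region at 2 of 6 genes and a set 1 region at 4 of 6. For endothelial markers it was 5 of 6 and 3 of 6, for basal and myoepithelial markers 5 of 7 and 6 of 7, for luminal markers 3 of 8 and 8 of 8 and for fibroblast markers 2 of 5 and 2 of 5.

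Called set 2 regions were at 3 of 9 leukocyte, 3 of 6 endothelial and 1 of 6 striated muscle markers and at 0 of the luminal, basal and fibroblast markers, against 5.06% of all genes. Called set 1 regions were at 5 of 9 leukocyte, 3 of 6 endothelial, 2 of 6 striated muscle, 8 of 8 luminal, 2 of 7 basal and 1 of 5 fibroblast markers, against 48.9% of all genes. Endothelial markers had a median length of 83.2 kb, leukocyte markers 16.8 kb and striated muscle markers 10.4 kb, against 17.8 kb over all genes. The part of length in these counts was not tested. Both set 2 regions at VWF, the von Willebrand factor of endothelial cells, were called, at 8.76-fold and 9.63-fold in the authors' deposited table (lowest FDR = 2.95e-05). VWF also had 2 set 1 regions, both called. The endothelial genes CDH5 (lowest FDR = 0.0421) and TEK (0.0428) had 1 called of 2 set 2 regions each in the authors' deposited table. CDH5 also had 1 set 1 region, which was called, and TEK had 0. The endothelial marker PECAM1 went the other way, with 0 set 2 and 8 set 1 regions, 3 of these called. Of the 2 set 2 regions at MS4A1, the B cell marker CD20, 1 was called (FDR = 0.000741 in the authors' deposited table). So was 1 of the 2 at SPI1, a transcription factor of myeloid and B cells (FDR = 0.000173 in the authors' deposited table). MS4A1 had 0 set 1 regions and SPI1 had 4, 1 of them called. CSF1R, CD14 and CD4 also had more in set 1. CSF1R had 2 set 2 regions, 0 called, and 5 set 1 regions, all called. CD14 had 1 and 6, with 1 called in each set, and CD4 0 and 5, with 3 called. The 2 set 2 regions of SPI1, including the called one, are also those counted for the muscle marker MYBPC3. The leukocyte and muscle counts are thus not separate. The luminal marker KRT19 and the basal marker KRT14 likewise share their 1 set 2 region. TP63, the basal cell factor, had 6 set 2 and 2 set 1 regions and MYH11, smooth muscle myosin, 5 and 2, with none called. TP63 (266.6 kb) and MYH11 (127.4 kb) are far longer than the median of 13.2 kb over the basal markers. The basal markers KRT5 and ACTA2 went the other way, with 0 set 2 and 3 set 1 regions each, of which 2 and 1 were called. Whether cells other than epithelial cells had a part in the set 2 regions of ARHGAP25 or NEBL was not tested.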

How the data were processed

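ATAC-seq libraries of goat mammary epithelial cells, 3 from lactation (replicates 1, 2 and 5) and 3 from the dry period (replicates 1, 2 and 3), were compared by the authors in 1 deposited table. Bowtie2 2.2.5 and MACS2 were used, per the submitters' processing notes, which state no roles. The genome build, differential caller, thresholds and any treatment of duplicates or of the Tn5 offset are not stated by the labels or the table. Per the file headers, the authors deposited a linear fold change ratio, a p-value and a Benjamini-Hochberg FDR (a q-value) per region. The deposited signal value is a score and was not used, and the other deposited column, the width, is in bp, from 200 to 3000 bp. Every listed p lies under 0.001. No value per library is held, so depth is unknown and no test was run.

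Region coordinates are the authors', written from 1. Chromosomes were numbered in the order of the sequence accessions; on 29 of 29, the share of regions closer than 1000 bp to a gene end was higher for that chromosome's genes than for any other's. Gene positions came from RefSeq assembly ARS1.2 and none are printed; its table has no strand, so distances are to either end. All 4 genes matched by symbol. Counting was done in Python 3.11.15 with pandas 2.3.3 and tested on planted regions. The genes and the lists were chosen with earlier results of these data known. Of the list entries, FLNA, PHAF1, WDR45, LYZ and MYH7 matched no gene on a numbered chromosome; 1 other entry and 1 other list are not reported here. Named are the 4 genes, their called regions, the largest folds, neighbours, the 10 other genes with the most set 2 regions, and up to 3 (set 2) and 2 (set 1) leading genes per list. Shifts of the limits tried are in the closing section. The promoter motif search was not run, since no sequence was used here.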

Additional observations from a re-analysis of the deposited data

How the results depend on the processing

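No paired analysis was possible because the table holds no value per library; for the same reason no library could be left out. Distances to the start of a gene were not run for lack of strand. Of 94 recomputed values, 62 stayed within 1.5 times of the reported one. Some of these could not move, since the set 1 counts of SLCO3A1 and NEBL were 0 and no narrower limit could lower them. A p under 1e-05 left as many set 2 regions at each of the 4 genes as an FDR under 0.05, so these settings are not separate checks. The set 2 count of SLCO3A1 was 22 with every distance limit tried, 17 with regions within 1000 bp merged (chosen after seeing the data), and 7 at a p under 1e-05. ARHGAP25 and BCAS3 kept 4 and 4 set 2 regions at that p, where 17.2% of all regions are in set 2. The set 2 count of NEBL was 1 inside the gene, 1 within 3000 bp, 6 within 100000 bp and 1 at a p under 1e-05. The set 1 count of ARHGAP25 was 1 inside the gene, 1 within 3000 bp and 0 at a p under 1e-05, and that of BCAS3 was 1 at that p. At an FDR under 0.01 the called set 2 regions were 4 in SLCO3A1, 2 in BCAS3 and 0 in NEBL, and at an FDR under 0.10 BCAS3 had 3 called set 1 regions. Inside the gene, NEBL had 0 called. Places by set 2 regions per 100000 bp were 25 for SLCO3A1, 485 for ARHGAP25, 3997 for BCAS3 and 5829 for NEBL. By regions inside the gene alone they were 87, 27 and 832 for ARHGAP25, BCAS3 and NEBL, and by called regions 2, 2 and 68. Genes with a set 2 region inside numbered 5 of 21 for prostaglandin and thyroid hormone handling, 9 of 26 for the nebulin list and 3 of 19 for the phagophore list. The share of all genes with a set 2 region inside is not given here, so these counts have no background. Genes with a called set 2 region numbered 1 for organic anion transporters, 4 for prostaglandin and thyroid hormone, 2 for the Rac and Cdc42 axis, 1 for the nebulin list and 1 for the phagophore list. Fewer regions count under each narrower limit by construction. Read depth is unknown, so its limit on these counts cannot be given.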
